A study of Mus musculus with 8 samples.

Results

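The interleukins, the tumour necrosis factor (TNF) superfamily and their receptors were described in the brown adipose tissue of 8 mice. Members were taken by gene symbol: every protein-coding gene whose symbol starts with Il and a digit, with Tnfsf or with Tnfrsf, and Tnf, Lta and Ltb. The rule used no measured value and found 117 of the 41388 genes counted in every library. By role, 51 members were ligands, 54 were signalling receptors or receptor chains, and 10 were antagonists, decoys or soluble binding proteins, called inhibitors here. The other 2 were the enzyme Il4i1 and Tnfsfm13, a transcript that reads through from Tnfsf12 into Tnfsf13. Of the 117, 71 had enough counts to be tested and 46 did not.

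Interleukins and TNF ligands are small proteins by which immune, stromal and fat cells signal to each other at short range. An interleukin receptor usually has a chain that binds 1 ligand and a chain that several receptors share, such as Il2rg, Il6st (gp130), Il10rb or Il1rap. Interleukin receptors signal through JAK kinases and STAT factors or, in the Il1 and Il17 families, through adaptor proteins to NF-kB, and TNF receptors signal through TRAF adaptors or death domains. In fat these cytokines are known for macrophage recruitment and activation, for the upkeep of resident lymphoid cells and for restraint of insulin action.

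All 8 mice were labelled C57BL/6J and were kept at room temperature on regular chow. The 4 ANKO mice, labelled adipocyte-specific Nampt knockouts, carried floxed Nampt and Cre under control of the adiponectin gene, a gene of fat cells, so cells without Cre keep Nampt. The 4 WT mice were labelled wild type and flox/flox. Ages are not given in the labels, and each library is 1 animal by the series design. Ribosomal RNA was removed before sequencing, and reads were counted per gene.

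Depth and tissue makeup differed between the groups. Libraries held 5738067 to 49697156 gene counts, and the 3 shallowest were ANKO2, ANKO3 and ANKO4. A level of 3 counts outside rRNA was 0.0626 CPM (the usual count value scaled to library size) in WT4 and 0.527 CPM in ANKO4, counting error only. Nampt, the deleted gene, was at 483 to 571 CPM in WT and 67.3 to 77.6 CPM in ANKO (log2 fold change -2.81, SE 0.12, edgeR adjusted p = 1.50e-07; exact two-sided permutation p = 0.0286, the smallest that 4 against 4 libraries allow). All 8 brown adipocyte markers, Ucp1 and Adipoq among them, were detected at 94.6 CPM or more on average in each group, and all 8 were lower in ANKO. Their summed level was 14167.5 to 21627.1 CPM in WT and 4986 to 9034 CPM in ANKO. Ucp1 was 5.39-fold and Dio2 9.86-fold lower. Of 13 macrophage markers 12 were higher in ANKO, with a summed level of 183 to 275 CPM in WT and 1332 to 1857 CPM in ANKO. All 8 T cell markers were higher, with a summed level of 3.16 to 4.88 and 27.5 to 48.5 CPM. For 3 of them no WT library reached the count filter level of 0.423 CPM. Calls of such markers are given as a description, since a gene seen mainly in ANKO had to differ. As a comparison for these marker counts, 30.6% of all genes tested were called higher and 27.6% lower. Of 8 markers of natural killer and innate lymphoid cells 7 were higher (63.2 to 76.6 and 127 to 144 CPM summed). Of these 7, 5 were under the filter level in every WT library. Rora held most of that sum, with means of 63.3 CPM in WT and 102 CPM in ANKO. Ncr1 and Klrb1c averaged 0.146 CPM each in WT and 2.09 and 2.77 CPM in ANKO. Of 6 B and plasma cell markers 5 were higher (7.83 to 14.4 and 177 to 502 CPM), and Ighm and Jchain held most of their sum. Of 8 dendritic cell markers 7 were higher and 1 lower (71.5 to 86.9 and 99.8 to 138 CPM). The lower one, Zbtb46, averaged 70.3 CPM in WT and 54.1 CPM in ANKO and held most of the WT sum. Of 6 mast cell markers 4 were higher (14.6 to 48.5 and 49.7 to 84.5 CPM), and Kit held most of their sum, at 21.8 and 55.5 CPM on average. Of 6 fibroblast and progenitor markers 5 were higher (311 to 355 and 1058 to 1885 CPM), and of 6 endothelial markers 4 were lower (948 to 1084 and 668 to 833 CPM). None of 6 neutrophil markers had enough counts to be tested, and Ly6g was at 0 in all 8 libraries. Of 8 skeletal muscle markers 7 were higher, and their summed level ran from 59.2 to 2299 CPM in WT and from 7840 to 12065 CPM in ANKO. WT3 and WT4 had the lowest muscle level. The muscle marker level was entered as a covariate in an alternative fit; the part of the other marker differences in the results was not tested. In bulk tissue fewer cells of a type and less RNA per cell cannot be told apart.

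Most measured members were higher in ANKO brown fat. Of the 117 members 53 rose, 3 fell, 15 were not called and 46 were not tested (edgeR quasi-likelihood test, Benjamini-Hochberg adjusted p under 0.05 over all 16705 genes tested). Over all genes tested 58.2% were called, 30.6% as higher and 27.6% as lower. The rising members spanned log2 fold changes of 0.61 to 4.88, and the 3 falls were the receptors Il15ra, Il17re and Tnfrsf1a. The count filter let 22 members through that were under its level of 0.423 CPM in at least 1 WT library, and a gene seen mainly in ANKO had to differ. For 6 of them, Il12rb1, Il9r, Tnfrsf9, Tnfsf8, Tnfsf14 and Tnfsf18, no WT library reached it, and their calls are given as a description. Among the 49 members over that level in all 4 WT libraries, 35 rose (71.4%) and 3 fell, against 25% higher and 31.8% lower of all genes over that level in WT. Their median log2 fold change was 1.12, and that of all such genes was -0.11. For 56 of the 71 tested members every ANKO library was on 1 side of every WT library, against 55% of all genes tested. The 71 include the 22 members under the filter level in at least 1 WT library, so this count is a description. When the level of muscle markers entered the fit as a covariate, 34 members were called higher and 2 lower. Under that fit 23.9% of all genes tested were called, 13.8% as higher and 10.1% as lower. Muscle level and genotype were correlated (Pearson r = 0.84), so a call could be lost through a larger SE without a smaller fold change. Il18 went from 1.57 (SE 0.26) to 1.58 (SE 0.52) on the log2 scale, and Tnfrsf1a from -0.81 to -0.11.

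**Figure D1:**
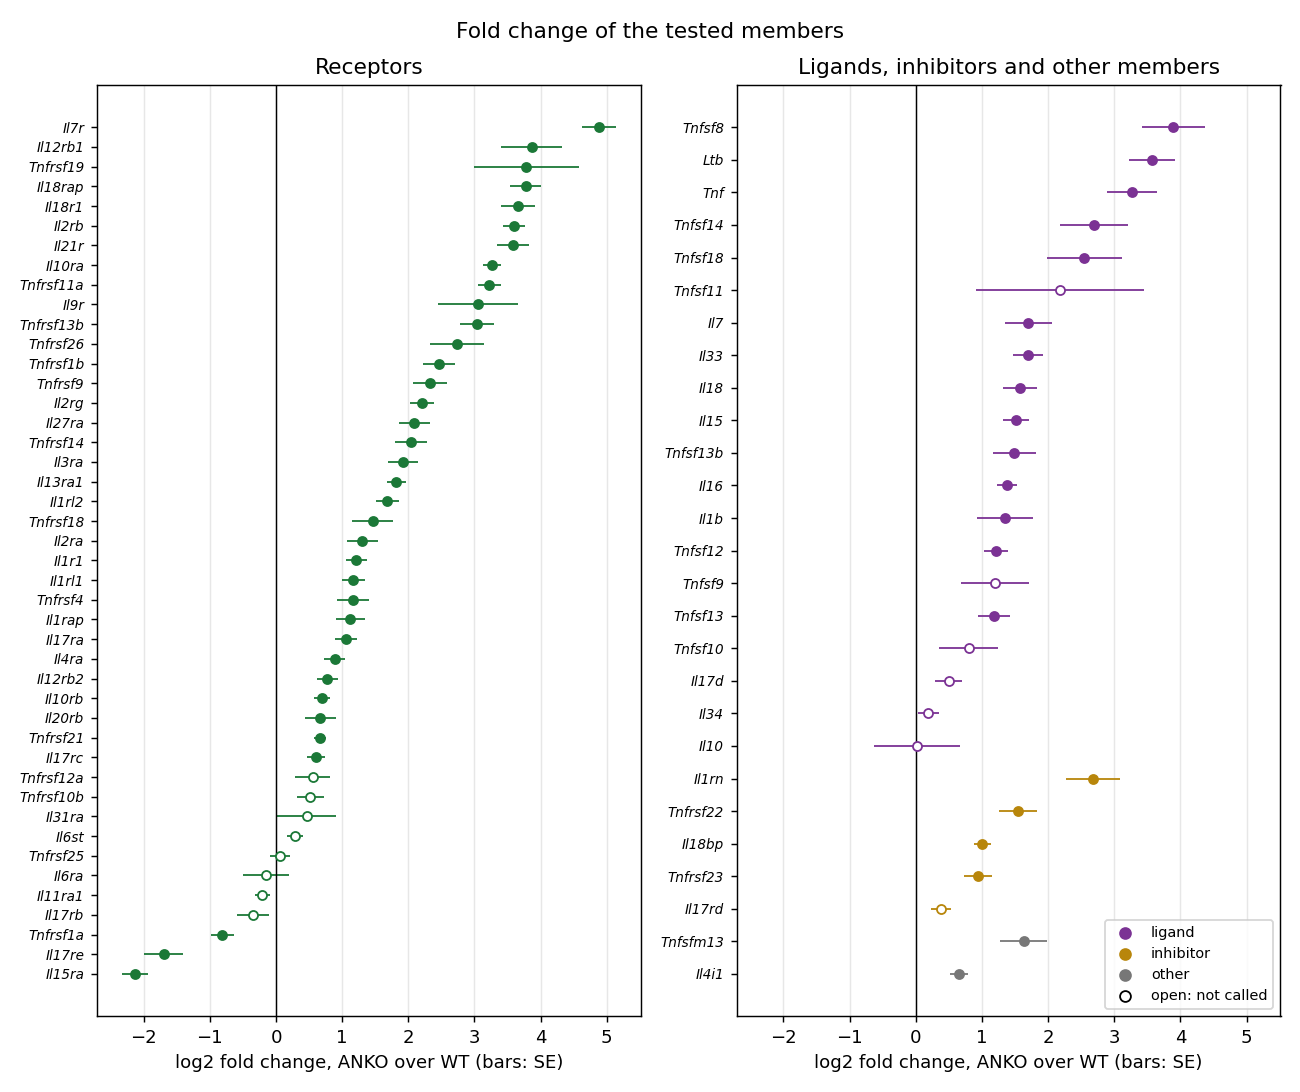
Fold change of the 71 tested members. Points are log2 fold changes of ANKO over WT and bars are standard errors, with receptors on the left and ligands, inhibitors and other members on the right. Filled points passed the test; of these 3 receptors lie on the lower side, and Il7r is farthest to the right at 4.88.

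Of the members too low to test, 31 were ligands, 10 receptors and 5 inhibitors. Of 51 ligands 14 rose, 0 fell, 6 were not called and 31 were too low to test. Of 54 receptors 33 rose, 3 fell, 8 were not called and 10 were too low. Among members over the filter level in all 4 WT libraries, 5 of 8 ligands and 25 of 35 receptors rose, with median log2 fold changes of 1.196 and 1.12. Of the 10 inhibitors 4 rose, 1 was not called and 5 were too low. With all libraries thinned to the lowest total 6 ligands were called higher, Tnfsf10 newly among them, and with the muscle covariate 7, against 30 and 26 receptors.

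Levels per length (RPKM, CPM per kb of gene length) put receptors far above ligands in each group. The summed ligand RPKM was 21.96, 18.5, 15.6 and 15.6 in WT1 to WT4 and 44.2, 36.5, 44.4 and 50.5 in ANKO1 to ANKO4. The summed receptor RPKM was 167, 170.2, 218 and 222 in WT and 252, 246, 276 and 255 in ANKO. Neither sum overlapped between the groups, and no test was made on a sum over members. Receptors held 11.3 ± 3.37 times the RPKM of ligands in WT and 5.93 ± 0.72 times in ANKO (mean ± SD, n = 4 each). In WT the 3 most abundant receptors, Tnfrsf1a, Il15ra and Il6st, held 55.5% ± 3.99 of the receptor sum, and in ANKO they held 25.2% ± 0.53. Without these 3, picked by their WT level, the receptor sum was 85.7 ± 8.26 RPKM in WT and 192 ± 10.1 RPKM in ANKO, and the ratio to ligands was 4.93 ± 1.18 and 4.43 ± 0.51. The most abundant ligands in WT were Il34 at 3.19 RPKM, Tnfsf10 at 2.87 RPKM and Tnfsf12 at 1.96 RPKM.

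**Figure D2:**
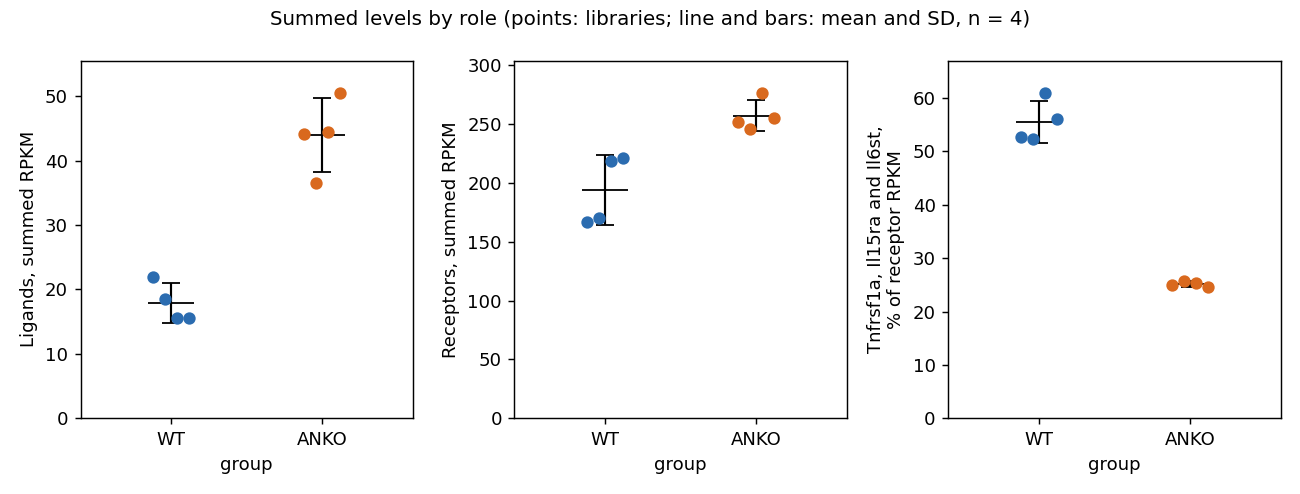
Summed RPKM of ligands and of receptors in each library, and the share of the receptor sum held by Tnfrsf1a, Il15ra and Il6st. Points are libraries, lines and bars are the mean and SD of 4. Both sums are higher in every ANKO library, while the share of the 3 receptors is 52.4% to 61.0% in WT and 24.6% to 25.8% in ANKO.

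**Figure D3:**
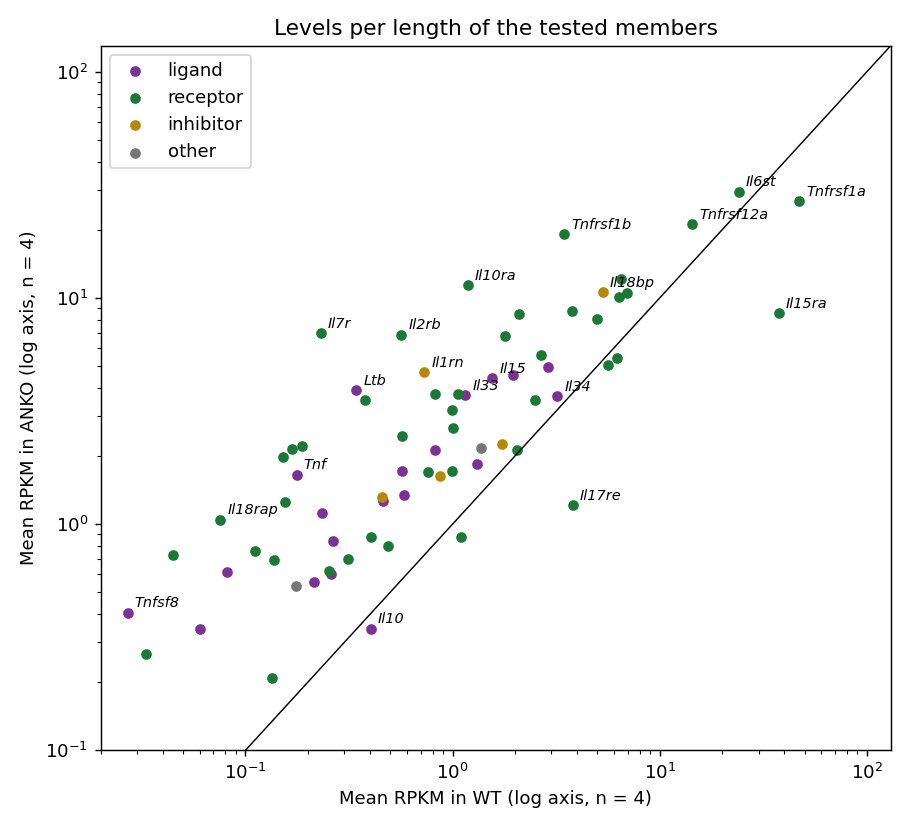
Mean RPKM in ANKO against mean RPKM in WT for the 71 tested members, both axes logarithmic, n = 4 per group. The line marks equal levels; Il15ra, Tnfrsf1a and Il17re lie below it, and Tnfrsf1b and Il10ra lie well above it.

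The Il15 system moved in opposite directions by chain. Il15ra, the chain that binds IL-15 with high affinity and presents it to neighbouring cells, was the receptor with the largest fall. It was at 132, 121, 212 and 152 CPM in WT1 to WT4 and 30.96, 29.6, 45.8 and 34.3 CPM in ANKO1 to ANKO4. Every ANKO library was below every WT library (log2 fold change -2.13, SE 0.20, edgeR adjusted p = 1.51e-05). In RPKM its mean went from 37.5, the level ranked 2 of the 117 members in WT, to 8.54, ranked 11 in ANKO. Its ligand Il15, which keeps natural killer and memory T cells alive, was at 3.61, 3.298, 2.47 and 2.48 CPM in WT1 to WT4 and 8.83, 6.102, 9.35 and 9.31 CPM in ANKO1 to ANKO4. The groups did not overlap and Il15 rose 2.86-fold (log2 fold change 1.51, SE 0.20, edgeR adjusted p = 0.000131). ANKO2 stood below the other ANKO libraries. The signalling chain Il2rb, carried by natural killer and T cells, was at 1.34, 1.59, 1.52 and 1.84 CPM in WT1 to WT4 and 23.7, 17.2, 18.5 and 17.2 CPM in ANKO1 to ANKO4, a rise of 12.1-fold with no overlap (log2 fold change 3.59, SE 0.17, edgeR adjusted p = 2.35e-07). Il2rg, the chain shared by the receptors of IL-2, IL-4, IL-7, IL-9, IL-15 and IL-21, was at 2.23, 1.86, 1.71 and 2.05 CPM in WT1 to WT4 and 10.1, 7.71, 10.8 and 7.42 CPM in ANKO1 to ANKO4 (log2 fold change 2.21, SE 0.18, edgeR adjusted p = 5.69e-06). It shares 30.5% of its exon bases with the overlapping gene Gm20489, so some reads may belong to either. With the muscle covariate Il15ra stayed lower (log2 fold change -1.66, SE 0.31, edgeR adjusted p = 0.00423). Its log2 fold change was -1.86 without WT3 and WT4 and -2.40 without WT1 and WT2. Il15ra has 2 annotated starts in RefSeq, and the 250 bases before the upstream one are shown because this gene fell furthest among the receptors. They lie at chr2:11705043-11705292, plus strand, GRCm38.p6, printed 5′ to 3′, and hold none of the 4 motifs searched (spelled out with the promoters of the TNF receptors).
Il15ra: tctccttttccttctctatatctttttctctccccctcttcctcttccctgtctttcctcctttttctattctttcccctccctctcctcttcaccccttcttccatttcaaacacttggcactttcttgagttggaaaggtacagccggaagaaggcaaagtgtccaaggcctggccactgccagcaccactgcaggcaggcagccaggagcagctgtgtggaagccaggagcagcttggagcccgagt

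The TNF receptors that bind TNF itself also parted. Tnfrsf1a, the widely expressed receptor with a death domain, was the most abundant member in WT at 47.1 RPKM. It was at 91.1, 98.4, 142 and 157 CPM in WT1 to WT4 and 68.8, 71.6, 75.3 and 62.00 CPM in ANKO1 to ANKO4 and fell 1.76-fold without overlap (log2 fold change -0.81, SE 0.17, edgeR adjusted p = 0.00235). WT3 and WT4 were higher than WT1 and WT2. Tnfrsf1b, the TNF receptor of immune and endothelial cells, was at 9.64, 8.96, 17.5 and 16.5 CPM in WT1 to WT4 and 69.9, 55.5, 88.6 and 77.9 CPM in ANKO1 to ANKO4, and rose 5.51-fold (log2 fold change 2.46, SE 0.25, edgeR adjusted p = 2.75e-05). The ratio of the group means, Tnfrsf1a over Tnfrsf1b per length, went from 47.1 over 3.45 RPKM to 26.8 over 19.1 RPKM. With the muscle covariate Tnfrsf1a was no longer called (log2 fold change -0.11, SE 0.18, edgeR adjusted p = 0.703), while Tnfrsf1b was called with a log2 fold change of 3.39 (SE 0.34, edgeR adjusted p = 0.000169). Without WT3 and WT4 Tnfrsf1a was still called lower, with a log2 fold change of -0.46. The promoters of the pair are shown because the receptors share a ligand and moved apart. Capitals mark matches to 4 motifs searched on both strands: an NF-kB type motif (GGG, any 2 bases, then TTTCC), a STAT type motif (TTCNNNGAA, the same on either strand), an interferon response type motif (GAAA, any 2 bases, then GAAA) and a PU.1 type motif (GAGGAAGT). Each promoter is the 250 bases before the RefSeq start, 5′ to 3′ on the strand of the gene, GRCm38.p6. Tnfrsf1a lies at chr6:125349473-125349722 on the plus strand and Tnfrsf1b at chr4:145246871-145247120 on the minus strand.
Tnfrsf1a: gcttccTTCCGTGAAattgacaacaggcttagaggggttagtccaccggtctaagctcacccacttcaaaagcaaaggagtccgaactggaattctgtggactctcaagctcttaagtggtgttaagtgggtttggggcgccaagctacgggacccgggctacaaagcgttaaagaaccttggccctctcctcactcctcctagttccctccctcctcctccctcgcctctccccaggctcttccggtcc
Tnfrsf1b: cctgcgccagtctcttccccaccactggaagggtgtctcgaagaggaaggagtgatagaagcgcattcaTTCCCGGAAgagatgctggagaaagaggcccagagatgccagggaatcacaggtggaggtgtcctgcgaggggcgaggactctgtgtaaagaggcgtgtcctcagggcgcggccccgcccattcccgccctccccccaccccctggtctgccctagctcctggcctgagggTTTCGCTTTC
Each holds 1 STAT type match, and Tnfrsf1b also holds 1 interferon response type match.

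Among TNF ligands, 8 of 14 rose, 3 were not called and 3 (Lta, Tnfsf4 and Tnfsf15) were too low to test. For 3 of the 8 no WT library reached the filter level. Of the 3 ligands over that level in all 4 WT libraries 2 rose, against 25% of all such genes. Tnf, the founding cytokine of the family, was at 0.544, 0.233, 0.152 and 0.227 CPM in WT1 to WT4 and 1.95, 2.53, 3.02 and 3.35 CPM in ANKO1 to ANKO4. It rose 9.62-fold from a low level with no overlap (log2 fold change 3.27, SE 0.37, edgeR adjusted p = 4.99e-05). Ltb, which forms the membrane lymphotoxin heterotrimer with Lta and organises lymphoid tissue, was at 0.8901, 0.466, 0.244 and 0.477 CPM in WT1 to WT4 and 6.34, 6.91, 6.61 and 3.78 CPM in ANKO1 to ANKO4 (log2 fold change 3.57, SE 0.35, edgeR adjusted p = 1.72e-05). Every ANKO library was above every WT library. Tnfsf8, the CD30 ligand of activated T cells, was at 0.198, 0, 0.122 and 0.0909 CPM in WT1 to WT4 and 1.57, 1.15, 1.700 and 1.75 CPM in ANKO1 to ANKO4. Its WT libraries were all under the filter level, with no count in WT2, so Tnfsf8 was tested only because it was high in ANKO and its call is no support. Tnfsf12, which encodes TWEAK, was at 3.02, 3.41, 2.804 and 2.64 CPM in WT1 to WT4 and 6.54, 5.07, 7.56 and 8.44 CPM in ANKO1 to ANKO4 (log2 fold change 1.21, SE 0.19, edgeR adjusted p = 0.000356), and shares 48.3% of its exon bases with Tnfsfm13. Tnfsf12 (edgeR adjusted p = 0.0806), Tnfsf13, Tnfsf13b and Tnfsf18 lost their calls with the muscle covariate. Its receptor Tnfrsf12a, a TNF receptor induced in injured tissue, was at 9.45, 12.8, 10.3 and 22.7 CPM in WT1 to WT4 and 18.3, 26.1, 19.4 and 17.8 CPM in ANKO1 to ANKO4. WT4 lay within the ANKO range, and Tnfrsf12a was not called (log2 fold change 0.55, SE 0.27, edgeR adjusted p = 0.104). It was called higher in 4 of 23 alternative settings: with no scaling factor, under thinning, without WT4, and without WT3 and WT4. The remaining called ligands, Tnfsf13, Tnfsf13b, Tnfsf14 and Tnfsf18, had log2 fold changes of 1.18 to 2.70 and ANKO means of 0.712 to 2.20 CPM. No WT library of Tnfsf14 or Tnfsf18 reached the filter level, so their calls are a description. Tnfsf13 shares 60.05% of its exon bases with Tnfsfm13 on the same strand, so some reads may belong to either. With all libraries thinned to the lowest total, Tnf, Tnfsf8, Tnfsf13, Tnfsf13b, Tnfsf14 and Tnfsf18 were no longer called or no longer had enough counts to be tested. Tnfsf9, a ligand of T cell costimulation, was not called (log2 fold change 1.198, edgeR adjusted p = 0.0665). Some alternative settings called it, among them the replicate block.

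The promoter of Ltb is shown as the rising ligand whose window held matches to more than 1 motif. It lies at chr17:35194257-35194506, plus strand, GRCm38.p6, with capitals as above.
Ltb: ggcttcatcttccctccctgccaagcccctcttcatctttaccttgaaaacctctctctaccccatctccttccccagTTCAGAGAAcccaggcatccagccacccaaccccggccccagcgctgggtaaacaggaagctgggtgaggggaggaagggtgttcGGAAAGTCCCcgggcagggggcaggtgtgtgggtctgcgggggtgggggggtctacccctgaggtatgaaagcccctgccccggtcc
It holds 1 STAT type match and 1 NF-kB type match on the opposite strand.

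Tnfsf10 and Tnfsf11 differed widely between libraries of the same group. Tnfsf10, the ligand TRAIL that can trigger cell death, was at 27.4, 17.2, 10.5 and 5.297 CPM in WT1 to WT4 and 28.9, 23.1, 20.3 and 31.7 CPM in ANKO1 to ANKO4 and was not called (log2 fold change 0.80, SE 0.44, edgeR adjusted p = 0.156), except as higher under thinning, without WT1 and without WT1 and WT2. WT2, with the highest WT muscle marker level, lay between WT1 and WT3, and WT1 lay within the ANKO range. Its mouse receptor Tnfrsf10b was not called either (log2 fold change 0.52, edgeR adjusted p = 0.0528). Tnfrsf10b was called in some alternative settings, among them DESeq2, limma-voom and the replicate block. The mouse decoy receptors for TRAIL rose: Tnfrsf22 was at 2.87, 2.02, 1.62 and 1.34 CPM in WT1 to WT4 and 6.04, 5.18, 3.78 and 7.71 CPM in ANKO1 to ANKO4 (log2 fold change 1.55, SE 0.29, edgeR adjusted p = 0.00107). Tnfrsf23 was at 3.81, 2.79, 2.16 and 2.84 CPM in WT1 to WT4 and 6.77, 5.41, 5.38 and 4.37 CPM in ANKO1 to ANKO4 (log2 fold change 0.95, SE 0.21, edgeR adjusted p = 0.0034). Neither decoy overlapped between groups, and neither kept its call with the muscle covariate. Tnfsf11, the osteoclast factor RANKL, was at 0.791, 1.16, 0.06096 and 0.0682 CPM in WT1 to WT4 and 0.344, 2.302, 0.189 and 7.13 CPM in ANKO1 to ANKO4, with ANKO4 far above ANKO1 and ANKO3, and was not called (log2 fold change 2.19, SE 1.27, edgeR adjusted p = 0.172). Its receptor Tnfrsf11a (RANK) was at 2.52, 2.33, 1.86 and 2.34 CPM in WT1 to WT4 and 19.3, 17.04, 22.01 and 26.5 CPM in ANKO1 to ANKO4, a rise of 9.35-fold with no overlap (log2 fold change 3.23, SE 0.17, edgeR adjusted p = 4.95e-07). The soluble RANKL decoy Tnfrsf11b had too few counts to test.

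Of 17 TNF receptors 10 rose, 1 fell, 3 were not called and 3 (Tnfrsf8, Tnfrsf13c and Tnfrsf17) were too low. Of the 10 over the filter level in all 4 WT libraries 6 rose and 1 fell, against 25% and 31.8% of all such genes. Tnfrsf13b (TACI), a receptor of B and plasma cells for Tnfsf13 and Tnfsf13b, was at 0.396, 0.543, 0.427 and 0.386 CPM in WT1 to WT4 and 3.71, 3.22, 4.72 and 2.62 CPM in ANKO1 to ANKO4 and rose 8.19-fold (log2 fold change 3.03, SE 0.25, edgeR adjusted p = 6.44e-06). Tnfrsf4 rose by 1.16, Tnfrsf9 by 2.33, Tnfrsf14 by 2.04 and Tnfrsf18 by 1.46 on the log2 scale. No WT library of Tnfrsf9 reached the filter level, so its call is a description. Tnfrsf4 and Tnfrsf18, receptors of activated and regulatory T cells, lost their calls with the muscle covariate (edgeR adjusted p = 0.276 and 0.364). Tnfrsf18 shares 27.2% of its exon bases with the antisense gene Gm16008. Tnfrsf19 (log2 fold change 3.79, edgeR adjusted p = 0.00356) was at 0.0455 to 2.06 CPM in WT and 7.14 to 11.2 CPM in ANKO. Its call was lost with the muscle covariate (log2 fold change 0.56, edgeR adjusted p = 0.397). Tnfrsf21 (DR6, a death domain receptor) rose least of the 10 (log2 fold change 0.67, edgeR adjusted p = 0.000164), and Tnfrsf26 rose by 2.73 on the log2 scale. Tnfrsf21 also lost its call with that covariate (edgeR adjusted p = 0.0502). Tnfrsf25, the receptor of Tnfsf15, was not called (log2 fold change 0.058, edgeR adjusted p = 0.757).

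**Figure D4:**
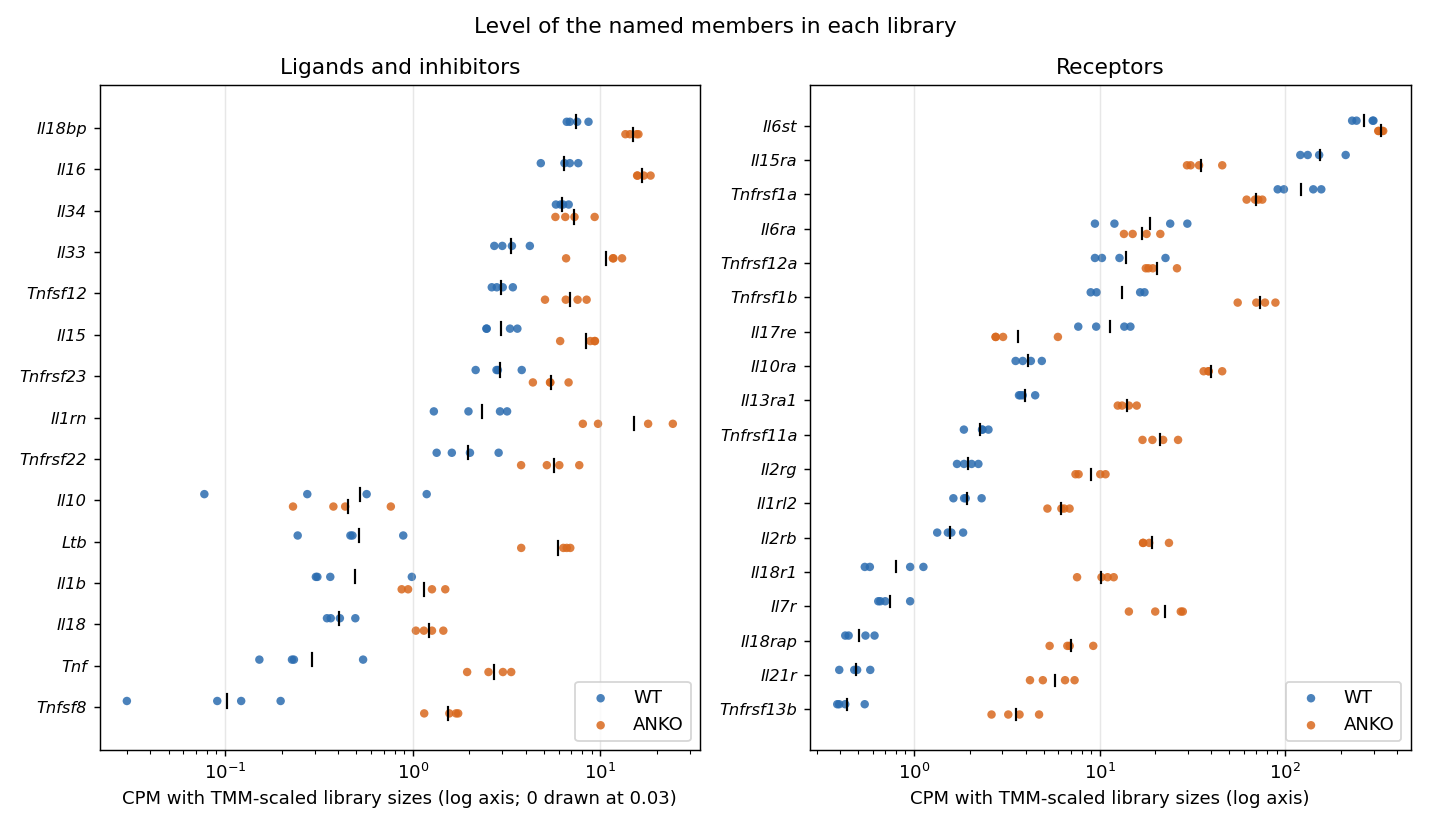
Level of the named, tested members in each library, as CPM on a log axis. Blue points are WT, orange points are ANKO and black ticks are group means; a library with 0 counts is drawn at 0.03. Il15ra, Tnfrsf1a and Il17re sit to the left in ANKO, and groups overlap only for Il10, Il34, Il1b, Il6ra and Tnfrsf12a.

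In the Il1 family all 3 tested ligands, all 6 tested receptors and both tested inhibitors rose, against 30.6% of all genes tested. Of these, 1 ligand, 5 receptors and both inhibitors were over the filter level in all 4 WT libraries. Il1b and Il18 reached it in 1 WT library each, so their part in this count is a description. With the muscle covariate Il1b (edgeR adjusted p = 0.464), Il18 (0.0523), Il1rap (0.381) and Il1rn (0.110) were no longer called. Il33, an alarmin held in the nucleus of stromal cells, was at 2.72, 3.38, 4.21 and 3.001 CPM in WT1 to WT4 and 11.7, 6.56, 13.04 and 11.6 CPM in ANKO1 to ANKO4 (log2 fold change 1.69, SE 0.23, edgeR adjusted p = 0.00015). Fibroblast and progenitor markers, summed, were at 311 to 355 CPM in WT and 1058 to 1885 CPM in ANKO; their part in this rise was not tested. Its receptor Il1rl1 (ST2) rose 2.25-fold (log2 fold change 1.17, edgeR adjusted p = 0.000299). Il18, a cytokine matured by caspase-1, was low at 0.495, 0.349, 0.366 and 0.409 CPM in WT1 to WT4 and 1.15, 1.27, 1.04 and 1.46 CPM in ANKO1 to ANKO4, and rose without overlap (log2 fold change 1.57, SE 0.26, edgeR adjusted p = 0.000487). Both chains of its receptor rose. The binding chain Il18r1 was at 0.544, 1.13, 0.579 and 0.955 CPM in WT1 to WT4 and 11.9, 10.2, 11.1 and 7.57 CPM in ANKO1 to ANKO4, and rose 12.6-fold (log2 fold change 3.66, SE 0.26, edgeR adjusted p = 2.39e-06). The accessory chain Il18rap was at 0.445, 0.427, 0.549 and 0.614 CPM in WT1 to WT4 and 9.25, 6.91, 6.71 and 5.38 CPM in ANKO1 to ANKO4, and rose 13.7-fold (log2 fold change 3.77, SE 0.23, edgeR adjusted p = 1.09e-06). The soluble inhibitor Il18bp, the most abundant inhibitor per length (RPKM) in each group, was at 7.52, 6.87, 6.61 and 8.64 CPM in WT1 to WT4 and 15.9, 13.6, 14.4 and 15.6 CPM in ANKO1 to ANKO4 and rose 2.01-fold (log2 fold change 1.004, SE 0.13, edgeR adjusted p = 0.000104). Per length, Il18bp was above Il18 in each group (5.29 against 0.567 RPKM in WT and 10.6 against 1.72 RPKM in ANKO).

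Il1b, the main secreted form of IL-1, was at 0.989, 0.3104, 0.305 and 0.364 CPM in WT1 to WT4 and 1.49, 1.27, 0.945 and 0.873 CPM in ANKO1 to ANKO4. WT1 lay within the ANKO range, and the call (log2 fold change 1.35, SE 0.42, edgeR adjusted p = 0.0185) was lost without WT3 (adjusted p = 0.0523), without WT4 (0.0548), without ANKO1 (0.0832) or without WT3 and WT4 together (edgeR adjusted p = 0.166). Il1rn, the secreted receptor antagonist, was at 2.92, 3.18, 1.98 and 1.296 CPM in WT1 to WT4 and 9.71, 8.06, 17.9 and 24.3 CPM in ANKO1 to ANKO4, and rose 6.43-fold without overlap (log2 fold change 2.68, SE 0.41, edgeR adjusted p = 0.000389). The signalling receptor Il1r1 rose by 1.21 and its partner Il1rap by 1.12 on the log2 scale. Il1rl2, the receptor for the IL-36 group, was at 1.63, 1.901, 2.32 and 1.86 CPM in WT1 to WT4 and 6.23, 6.45, 6.896 and 5.24 CPM in ANKO1 to ANKO4 (log2 fold change 1.68, SE 0.17, edgeR adjusted p = 2.67e-05). Il1a, the Il36 group ligands Il1f6, Il1f8 and Il1f9, Il1f10, the inhibitor Il1f5 and the decoy Il1r2 had too few counts, as had the neuronal Il1rapl1 and Il1rapl2.

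Il18rap and Il18r1 are neighbouring genes on chromosome 1 whose products form 1 receptor and which rose together. The promoter of Il18rap is shown at chr1:40515112-40515361, plus strand, GRCm38.p6, with capitals as above.
Il18rap: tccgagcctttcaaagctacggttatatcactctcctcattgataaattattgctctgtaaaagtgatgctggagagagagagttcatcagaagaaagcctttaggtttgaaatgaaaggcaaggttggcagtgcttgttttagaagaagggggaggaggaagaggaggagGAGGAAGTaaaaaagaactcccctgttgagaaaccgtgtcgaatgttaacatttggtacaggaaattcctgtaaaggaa
It holds 1 PU.1 type match. The same windows of the annotated Il18r1 starts hold no PU.1 type match, and that at chr1:40465756-40466005 holds STAT type matches. The part of any motif in the rise was not tested.

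Of the 11 receptors that share Il2rg or a common beta chain, or bind the same ligands, 9 rose, 1 fell and 1 was too low. Of the 8 over the filter level in all 4 WT libraries 7 rose and 1 fell, against 25% and 31.8% of all such genes. The T cell markers, summed, were at 3.16 to 4.88 CPM in WT and 27.5 to 48.5 CPM in ANKO; their part in these rises was not tested. Il7r, needed for the survival of T cells and innate lymphoid cells, was at 0.643, 0.6597, 0.701 and 0.955 CPM in WT1 to WT4 and 19.95, 14.4, 27.4 and 28.1 CPM in ANKO1 to ANKO4. It rose 29.4-fold, the largest change of any tested member, with no overlap (log2 fold change 4.88, SE 0.26, edgeR adjusted p = 4.74e-07). Il21r, a receptor of B, T and natural killer cells, was at 0.495, 0.582, 0.396 and 0.477 CPM in WT1 to WT4 and 7.34, 4.95, 6.52 and 4.22 CPM in ANKO1 to ANKO4 (log2 fold change 3.58, SE 0.25, edgeR adjusted p = 1.96e-06). Il2ra, Il4ra and Il9r rose by 1.31, 0.89 and 3.05 on the log2 scale, and Il4ra was the most abundant of them at 12.1 RPKM in ANKO. No WT library of Il9r reached the filter level, so its call is a description. Il13ra1, the binding chain for IL-13, was at 3.86, 4.501, 3.75 and 3.68 CPM in WT1 to WT4 and 12.5, 14.4, 13.2 and 15.9 CPM in ANKO1 to ANKO4 (log2 fold change 1.82, SE 0.14, edgeR adjusted p = 3.22e-06). Il3ra, which pairs with the common beta chain Csf2rb, rose by 1.92 on the log2 scale. Of the ligands, Il7 rose (log2 fold change 1.700, edgeR adjusted p = 0.00217) to a mean of 2.09 CPM, while Il2, Il3, Il4, Il5, Il9, Il13 and Il21 had too few counts to test, as had the receptor Il5ra and the decoy Il13ra2. Il16, which draws leukocytes and is released from a longer precursor, was at 7.62, 4.81, 6.43 and 6.87 CPM in WT1 to WT4 and 18.5, 15.8, 15.7 and 17.03 CPM in ANKO1 to ANKO4 and rose 2.61-fold (log2 fold change 1.38, SE 0.15, edgeR adjusted p = 4.06e-05); it shares 15.3% of its exon bases with Stard5 on the opposite strand. The enzyme Il4i1, an amino acid oxidase of antigen-presenting cells, was called higher (log2 fold change 0.65, edgeR adjusted p = 0.00207), but 83.9% of its exon bases are shared with Tbc1d17 on the opposite strand. Il4i1, Il7 and Il9r lost their calls with the muscle covariate (edgeR adjusted p = 0.0656, 0.165 and 0.0767).

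The promoter of Il7r is shown because this gene rose most. It lies at chr15:9529877-9530126, minus strand, GRCm38.p6, with capitals as above.
Il7r: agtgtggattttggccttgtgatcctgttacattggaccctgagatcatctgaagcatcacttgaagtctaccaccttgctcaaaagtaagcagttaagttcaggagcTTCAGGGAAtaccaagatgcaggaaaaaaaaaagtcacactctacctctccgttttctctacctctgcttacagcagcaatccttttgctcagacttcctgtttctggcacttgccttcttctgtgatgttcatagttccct
It holds 1 STAT type match.

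Of the 9 receptors in the Il6 and Il12 group 3 rose, 4 were not called and 2 were too low. Il6st, the gp130 chain itself, was at 229, 242, 299 and 296 CPM in WT1 to WT4 and 319, 317, 333 and 337 CPM in ANKO1 to ANKO4. All 4 ANKO libraries were above all 4 WT libraries, yet the difference was small and missed the threshold (log2 fold change 0.29, SE 0.12, edgeR adjusted p = 0.0578); it passed in 9 of 23 alternative settings, each time as higher. Il6ra, the chain that binds IL-6, was at 9.45, 12.03, 29.7 and 24.03 CPM in WT1 to WT4 and 17.9, 15.1, 21.3 and 13.5 CPM in ANKO1 to ANKO4 and was not called (log2 fold change -0.15, SE 0.35, edgeR adjusted p = 0.737). WT1 and WT2 were below every ANKO library and WT3 and WT4 above every one. Without WT3 and WT4 it was called higher (0.65, edgeR adjusted p = 0.0261), and without WT1 and WT2 lower (-0.68, edgeR adjusted p = 0.00925). Il11ra1 was not called (log2 fold change -0.21, edgeR adjusted p = 0.142). Its near-identical copy Il11ra2 had 0 counts in every library, and how reads common to both were counted is not given in the labels. Il6 had 1, 0, 2 and 0 counts in WT1 to WT4 and 3, 0, 1 and 2 counts in ANKO1 to ANKO4, and Il11, Il27, Il31, Il12a, Il12b and Il23a were also too low to test. Of the receptors for the Il12 group, Il12rb1 rose by 3.86, Il27ra by 2.09 and Il12rb2 by 0.77 on the log2 scale, and Il23r was too low. No WT library of Il12rb1 reached the filter level, so its call is a description. Il12rb2 shares 40.0% of its exon bases with Serbp1 on the opposite strand, and it lost its call with the muscle covariate (edgeR adjusted p = 0.114). Il31ra, related to gp130, was not called (log2 fold change 0.46, edgeR adjusted p = 0.393).

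Both chains of the IL-10 receptor rose, and IL-10 itself was not called. Macrophage markers, summed, were at 183 to 275 CPM in WT and 1332 to 1857 CPM in ANKO; their part in these rises was not tested. Il10ra, the binding chain on leukocytes, was at 3.86, 3.53, 4.27 and 4.89 CPM in WT1 to WT4 and 45.8, 36.4, 38.6 and 38.7 CPM in ANKO1 to ANKO4. It rose 9.59-fold with the smallest p of all members (log2 fold change 3.26, SE 0.13, edgeR adjusted p = 1.50e-07). Il10rb, a chain shared by several receptors of the family, rose by 0.69 on the log2 scale and Il20rb by 0.67; the latter lost its call when any of WT1, WT2, ANKO2, ANKO3 or ANKO4 was left out. Il10, which restrains macrophage activation, was at 1.19, 0.0776, 0.274 and 0.568 CPM in WT1 to WT4 and 0.764, 0.2302, 0.378 and 0.437 CPM in ANKO1 to ANKO4, with the ANKO libraries inside the WT range and no call (log2 fold change 0.02, SE 0.64, edgeR adjusted p = 0.981). Il19, Il20, Il22, Il24 and the receptor chains Il20ra and Il22ra1 had too few counts. Il34, a ligand of the macrophage receptor Csf1r, was the ligand with the highest level per length in WT, at 6.13, 6.33, 5.79 and 6.77 CPM in WT1 to WT4 and 6.498, 5.76, 7.27 and 9.31 CPM in ANKO1 to ANKO4, and was not called (log2 fold change 0.19, SE 0.17, edgeR adjusted p = 0.339). Its receptor Csf1r, also a macrophage marker, rose from 23.4 ± 3.58 to 108 ± 12.3 CPM (SD, n = 4 each).

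In the Il17 family 2 receptors rose and 1 fell. Il17re, a chain of the receptor for IL-17C on epithelial cells, was at 13.6, 14.7, 7.68 and 9.59 CPM in WT1 to WT4 and 2.75, 2.76, 3.02 and 5.97 CPM in ANKO1 to ANKO4. It fell 3.25-fold without overlap (log2 fold change -1.698, SE 0.30, edgeR adjusted p = 0.000769), and ANKO4 stood above the other ANKO libraries. With the muscle covariate it was still lower (-2.41, edgeR adjusted p = 0.00166). The shared chain Il17ra rose by 1.06 and Il17rc, the neighbour of Il17re on chromosome 6, by 0.61 on the log2 scale. Il17rc lost its call with the muscle covariate (edgeR adjusted p = 0.378). Il17rb was not called (log2 fold change -0.35, edgeR adjusted p = 0.247), nor were the ligand Il17d (log2 fold change 0.50, edgeR adjusted p = 0.0562) and the signalling inhibitor Il17rd (log2 fold change 0.38, edgeR adjusted p = 0.0521). Some alternative settings called Il17d and Il17rd, among them upper quartile scaling and limma-voom. The ligands Il17a, Il17b, Il17c, Il17f and Il25 had too few counts to test, and Il17a had 0 counts in every library.

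The order of WT libraries by muscle marker level was WT4, WT3, WT1 and WT2, from low to high. Tnfrsf1a and Il15ra were highest in WT3 and WT4, and Il6ra was as well, while Tnfsf10 was lowest there. Within the libraries of highest muscle level, all ANKO, Il15ra was at 29.6 to 45.8 CPM and Tnfrsf1a at 62.0 to 75.3 CPM. Every ANKO library had a higher muscle marker level than every WT library, so genotype and muscle level cannot be told apart fully in these data.

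**Figure D5:**
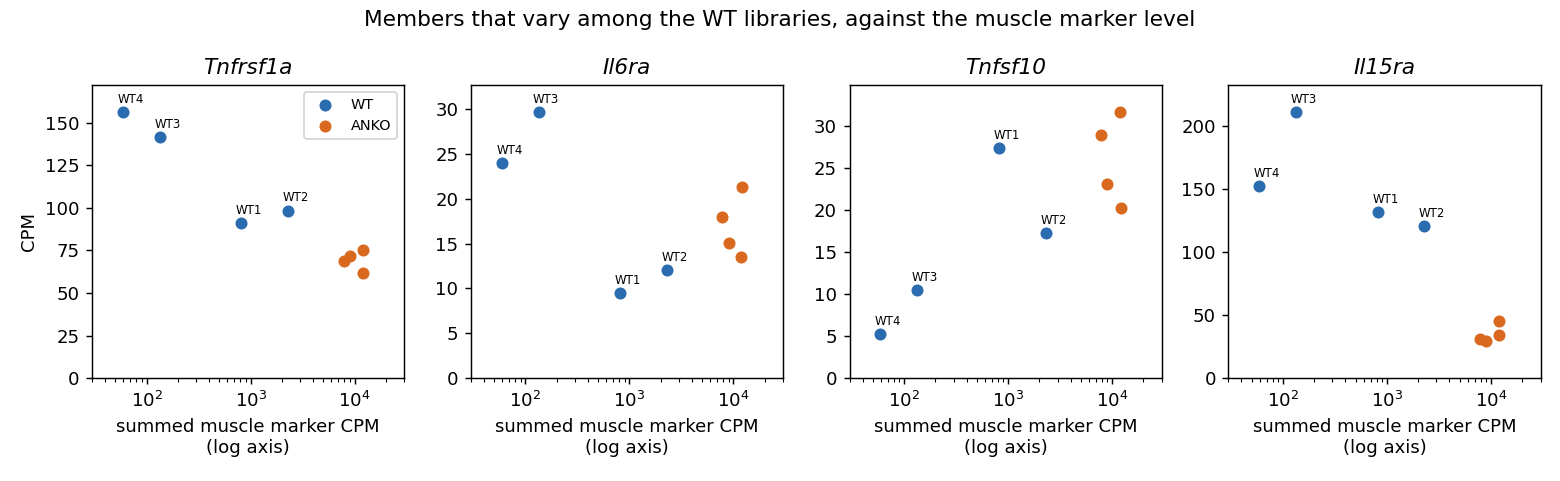
CPM of Tnfrsf1a, Il6ra, Tnfsf10 and Il15ra in each library against the summed CPM of 8 skeletal muscle markers (log axis). Blue points are WT, named by library, and orange points are ANKO. Tnfrsf1a is higher and Tnfsf10 lower in WT3 and WT4 than in WT1 and WT2, though WT2, with the highest WT muscle level, lies between WT1 and WT3 for both, while Il15ra is at most 45.8 CPM in ANKO and at least 121 CPM in WT.

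Promoters of 93 of the 117 members were matched by symbol to RefSeq (GRCm38.p6), with 112 start sites in all. In windows from 250 bases before to 50 after the start, the NF-kB type motif was in 11 of 112 member promoters (9.82%) and in 1.63% of the 32851 promoters in the table. The STAT type motif was in 16.1% of member promoters and 8.30% of all, the interferon response type in 6.25% and 3.44%, and the PU.1 type in 2.68% and 3.20%. Start sites of 1 gene can overlap, so these shares are a description. Of 54 promoters of rising members 7 held the NF-kB type and 8 the STAT type. Of the 4 promoters of falling members 0 held the NF-kB type and 1, that of Tnfrsf1a, held the STAT type.

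Genes that carry the signal of these receptors moved in both directions. Of 93 genes in 6 lists, 85 were tested, 49 rose and 13 fell, with a median log2 fold change of 0.52. Of all genes tested 30.6% were higher and 27.6% lower, with a median of -0.01. Among TNF superfamily genes with other names 6 of 12 rose and 2 fell. Cd40, a receptor of antigen-presenting cells, rose by 2.05 and Relt by 1.98 on the log2 scale, while Eda fell by 0.81 and the death receptor Fas by 0.33. Among cytokines and chains that share receptors with the interleukins 11 of 18 rose and 1 fell. Csf1r rose by 2.21 and Crlf2, the receptor of TSLP, by 1.92, and Cntfr, which works with gp130, fell by 2.65. In Il1 receptor signalling 6 of 16 rose (37.5%) and 4 fell, shares near those of all genes. Among those that rose were Casp1 (3.41), which matures IL-1 and IL-18, and Gsdmd (1.74), the pore through which they leave the cell, while the adaptor Myd88 and the kinase Irak1 fell by 0.52 and 0.60.

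In JAK-STAT signalling 10 of 17 rose and 4 fell. The phosphatase Ptpn6 rose by 3.45 and Stat2 by 1.43 on the log2 scale, and Cish, a feedback inhibitor of STAT5, fell by 2.100 and Jak3 by 0.34. In TNF receptor signalling 11 of 17 rose and 0 fell. The smallest p were those of the adaptor Traf1, with a log2 fold change of 3.14, and the NF-kB inhibitor Tnfaip3 (from 6.70 ± 0.776 to 26.8 ± 4.37 CPM, SD, n = 4 each). Among NF-kB genes 5 of 13 rose (38.5%) and 2 fell, with a median log2 fold change of 0.024, so the share of rises was near that of all genes. The inhibitor Nfkbie rose by 2.41 and Nfkb2 by 0.73, and the kinase Chuk and the regulator Nfkbiz fell by 0.58 and 0.98. Of the 93 genes 29 were, with the muscle covariate, called higher and 6 lower, against 13.8% and 10.1% of all genes tested.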

How the data were processed

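Total RNA from flash-frozen brown adipose tissue was depleted of rRNA and sequenced, per the labels' protocols. The submitters' processing notes name STAR 2.0.4b, Subread, featureCounts 1.45 and the build GRCm38. Which annotation release and strand setting were used, and how multi-mapping reads were handled, is not given in the sources used here, so genes that overlap or have near-identical copies may share reads. For each library the authors deposited whole-number counts per gene. The deposited CPM was the count scaled to the count total of its table, and the deposited RPKM was that CPM per kb of gene length, per the file headers and checked to within 1e-09.

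Only counts were tested. The 355 rRNA rows were left out, and symbols and gene types came from GENCODE M21 (40254 of 41388 IDs matched, 40195 with overlapping coordinates). CPM and RPKM printed here were recomputed with TMM-scaled library sizes. Genes that passed edgeR's filterByExpr (16705 genes, about 0.423 CPM) were tested between 4 WT and 4 ANKO mice with edgeR 4.0.16 (quasi-likelihood test, R 4.3.3) and Benjamini-Hochberg adjustment over all of them. The biological coefficient of variation was 20.6%. The procedure was also run on simulated data with far fewer changed genes than were called here. That run does not measure errors or scaling under so many changes. No 2 libraries agreed within sampling noise. Intervals and floors cover counting error only.

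The members and gene lists were chosen with earlier results of these data known. Members given by library were the called ones with the smallest p and at least 1 CPM in either group (up to 8 ligands, 12 receptors and 4 inhibitors), every lower one and a fixed set. For each pathway list, the 2 called genes with the smallest p in each direction were named. The other members were added to account for all members. Alternatives were other scalings, filters, tests (DESeq2 1.42.0 and limma 3.58.1), thresholds, thinning, a muscle covariate, a replicate block and left-out libraries.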

Additional observations from a re-analysis of the deposited data

Results flagged for a closer look

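In 3 of 76 groups of 4 values, 1 library stood apart from the other libraries of its group by Dixon's test, and chance marks about 1 in 20 groups. Il1b was at 0.989 CPM in WT1, while the other WT libraries were at 0.305 to 0.364 CPM. Il15 was at 6.10 CPM in ANKO2, while the other ANKO libraries were at 8.83 to 9.35 CPM, all above every WT library. Il17re was at 5.97 CPM in ANKO4, while the other ANKO libraries were at 2.75 to 3.02 CPM. No cause was tested.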

How the results depend on the processing

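Of 752 values of the 33 named, tested members under the alternatives, 712 kept their direction and side of the threshold, 14 lost the call, 14 gained it and 12 turned, and 22 members had no such change. With the muscle covariate 3989 genes were called, 34 members were higher, 7 ligands were higher, and 29 pathway genes were higher and 6 lower. Requiring at least 1 on the log2 scale left 4786 genes and 2 lower pathway genes, and under thinning 6 ligands were higher, 5 of the 14 and newly Tnfsf10. Without WT1 and WT2, a choice made after seeing the data, 5 members and 20 pathway genes were lower. Leaving out single libraries gave 8942 to 10467 genes, 51 to 59 members higher and 3 lower, 12 to 18 ligands and 32 to 34 receptors higher, 47 to 53 pathway genes higher and 12 to 15 lower, and -2.86 to -2.76 for Nampt. Il10 turned without a filter (-0.047), with DESeq2 (-0.14), with the replicate block (-0.13), with protein-coding genes only (-0.0059) and without WT3 and WT4 (-0.25), and ran from -0.54 to 0.60 when 1 library was left out. Il6ra turned with no scaling factor (0.041), with the muscle covariate (1.203) and without WT3 and WT4 (0.65), and ran from -0.39 to 0.15 when 1 library was left out. The cause of these changes was not tested. With no scaling factor the median of all genes shifted by 0.18 on the log2 scale and 66.7% of calls were higher, against 52.5%, and no called member lost its call. Same-numbered libraries did not deviate together (r = 0.112, -0.0131, 0.0747 and -0.0546). These values gave no sign of pairing by number, but they cannot exclude that same-numbered animals were paired. When the replicate block was fitted, 9238 genes were called, 55 members were higher and 3 lower. A level of 3 counts was 0.527 CPM in ANKO4, and for untested members low RNA and low depth were not separated.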

Other observations

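Among the 46 members with too few counts to test, 8 had 0 counts in all 8 libraries: Il17a, Il1f10, Il1f8, Il20, Il22, Il3, Il11ra2 and Il1f5. Members named here were chosen after their values were seen. Il22ra2, the soluble protein that binds IL-22, had 4, 5, 7 and 13 counts in WT1 to WT4 and 0 in every ANKO library, so its pooled level was at least 4.12-fold lower in ANKO (floor of 3 counts over the group). Il12b, the subunit shared by IL-12 and IL-23, had 1, 5, 1 and 3 counts in WT1 to WT4 and 25, 7, 6 and 2 counts in ANKO1 to ANKO4. Both were called when no filter on low counts was applied.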
